A study of Mus musculus with 6 samples.

Results

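RCOR1 and RCOR2 are 2 of the CoREST proteins, and the sites at which each was found on chromatin of E14 mouse embryonic stem cells were set side by side here. The comparison took the peak lists of chromatin immunoprecipitation and sequencing (ChIP-seq), 1 library for each protein. It covered 59 of the 84 RCOR1 peaks and 437 of the 459 RCOR2 peaks, which is 496 of the 14023 peaks deposited for the 6 proteins of the study. A peak counted as shared when the midpoint of a peak of the other list lay less than 400 bp away on the same chromosome. Left out were all peaks of a crowded stretch of chromosome X, where the lists ran from chrX:165313931 to 165352151, and 1 further RCOR1 peak on that chromosome. The other lists, used to describe these peaks, were those of REST, RCOR3, SIN3A and SIN3B.

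All 6 libraries came from E14 cells at passages 15 to 18. RCOR1 and RCOR2 were each precipitated with an antibody against the V5 tag, from a stable line with a low level of an added, V5-tagged copy of that protein, so the cells' own untagged RCOR1 and RCOR2 carried no tag to be pulled down. RCOR3 was treated the same way, as was SIN3B, whose transgene label reads VG while its antibody label reads V5. REST and SIN3A were precipitated from E14 with antibodies against the proteins themselves. The sources used here do not say whether each tagged line was a single clone. With 1 library for each protein, no difference between the proteins could be tested. The 95% confidence intervals of shares below are exact (Clopper-Pearson) and cover counting error only.

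REST is a zinc finger repressor that binds RE1 elements and silences neuronal genes in cells that are not neurons. One end of REST recruits SIN3 scaffolds with histone deacetylases, and the other recruits CoREST, which couples histone deacetylases to the demethylase LSD1. RCOR1 is the founding CoREST protein, and RCOR2 and RCOR3 are its paralogs, with the ELM2 and SANT domains that hold these enzymes. RCOR2 is known as the paralog prominent in embryonic stem cells.

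Each peak carries a score given by the authors, whose meaning is not stated. Here it only ordered the peaks of a list, with rank 1 for the highest score and tied peaks sharing the better rank. Scores ran from 7.31 to 56.98 (median 12) for the RCOR1 peaks compared and from 7.04 to 52.01 (median 11.31) for those of RCOR2. Only 26 different scores occurred among the 59 RCOR1 peaks and 36 among the 437 RCOR2 peaks, and 123 RCOR2 peaks shared the score 10.55, so the lower ranks are coarse. Peaks were narrow, with median widths of 40 bp for RCOR1 and 60 bp for RCOR2. Sequencing depth is unknown, so the lengths of the lists do not measure how much either protein bound. Coordinates are those of the authors (build mm8), and no genes or sequences were assigned to them.

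RCOR1 and RCOR2 met at 30 sites, nearly all of them strong REST sites. These were 50.8% of the RCOR1 peaks (30 of 59, 37.5 to 64.1%) but 6.86% of the RCOR2 peaks (30 of 437, 4.68 to 9.66%). The remaining 29 RCOR1 peaks had no RCOR2 peak, and 407 RCOR2 peaks had no RCOR1 peak. Shared midpoints lay close together, at a median of 30 bp and within 50 bp for 24 of the 30 pairs. The widest pairs were at chr15:84657411-84657471 with 110 bp, chr4:150448551-150448631 with 100 bp and chr17:25541371-25541431 with 80 bp. Beyond them came a wide gap: the nearest RCOR1 peaks not counted as shared lay 24460 bp from an RCOR2 peak at chr4:139555691-139555731, 25560 bp at chr13:54955091-54955151 and 31580 bp at chr14:62667371-62667411. The limit of 400 bp therefore fell where the lists had no pair to place. A doublet on chromosome 4, at chr4:150448551-150448631 and chr4:150448931-150448971, contributed 2 of the 30 sites. Counted as 1, it left 29 shared peaks among 58 RCOR1 peaks.

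The highest RCOR1 peaks were all shared. The 14 RCOR1 peaks of rank 1 to 14 each had an RCOR2 peak, whereas the best RCOR1-only peak stood at rank 15. Of the RCOR1 peaks of rank 15 to 36, 8 of 22 were shared, and of those of rank 37 to 59, 8 of 23. The median RCOR1 rank was 16.5 for shared peaks (quartiles 8.25 and 33.75) and 37 for RCOR1-only peaks (24 and 37). In the RCOR2 list, the 4 best peaks were shared and the peak of rank 5 was not. The median RCOR2 rank was 56 of 437 for shared peaks (quartiles 14 and 151.5) and 213 for RCOR2-only peaks (91 and 283). Shared peaks thus stood high in both lists. The best RCOR2-only score was 24.12 against 52.01 for shared RCOR2 peaks, and the best RCOR1-only score 16.5 against 56.98. RCOR2-only peaks were 407 of 437 and RCOR1-only peaks 29 of 59. The best ranks of these classes of unlike size therefore cannot be compared directly.

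**Figure D1:**
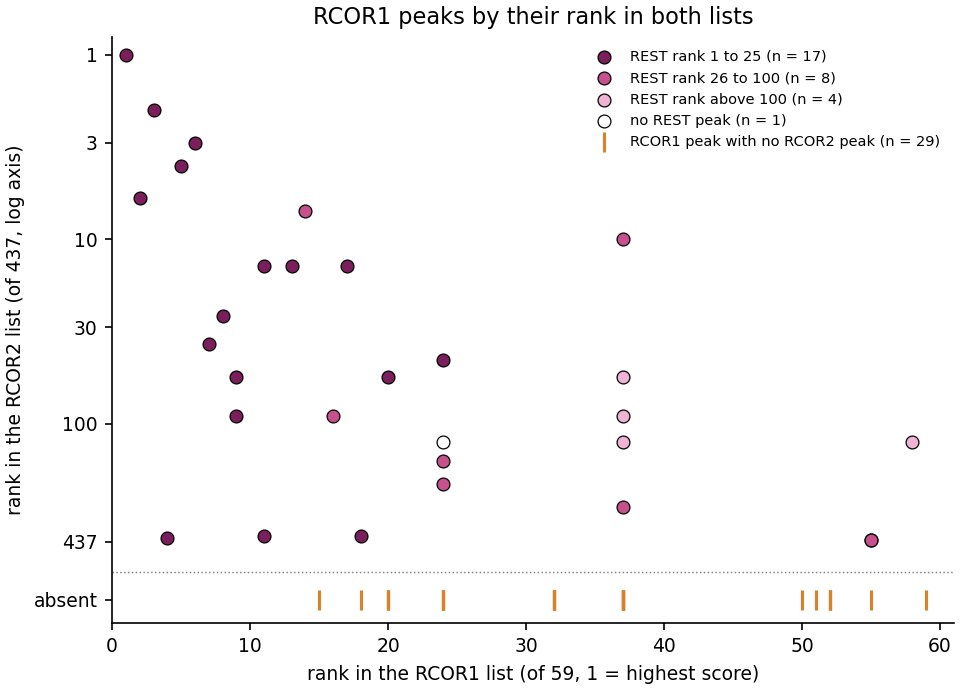
Each circle is 1 of the 30 shared peaks, placed by its rank in the RCOR1 list (horizontal, of 59) and in the RCOR2 list (vertical, log axis, of 437, best at the top) and shaded by the rank of the REST peak there. Orange ticks are the 29 RCOR1 peaks with no RCOR2 peak, tied ranks overlap, and no tick lies left of rank 15.

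The site at chr7:6014211-6014271 was the highest of all 6 lists once the peaks named above had been left out. It had an RCOR1 score of 56.98, an RCOR2 score of 52.01 and a REST score of 1121.33, each at rank 1, and RCOR3, SIN3A and SIN3B also ranked it 1. At chr19:4989171-4989211, RCOR1 stood at rank 3 (score 39.74), RCOR2 at rank 2 (33.92) and REST at rank 4 (696.98). These are sites where both CoREST proteins and REST were near the top together. The site chr14:62635811-62635851 had RCOR1 at rank 2 (score 41.99), RCOR2 at rank 6 (23.37) and REST at rank 6 (660.23). At chr15:72395971-72396011 the ranks were 5 for RCOR1 (24.74), 4 for RCOR2 (27.89) and 9 for REST. At chr9:21700911-21700971 they were 6 for RCOR1 (23.99), 3 for RCOR2 (33.17) and 10 for REST.

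At other high RCOR1 sites the RCOR2 rank was a larger number, in a list of 437 peaks against 59 for RCOR1. Taken as rank over list length, the RCOR1 position was the better one at 8 of the 30 shared pairs. The ranks at chr15:77947171-77947211 were 7 for RCOR1, 37 for RCOR2 and 3 for REST. RCOR1 had rank 8, RCOR2 rank 26 and REST rank 17 at chr2:181231571-181231611. The 2 RCOR1 peaks that tied at rank 9 had RCOR2 ranks of 91 at chr16:62700751-62700791 and 56 at chr4:150448931-150448971. The widest contrast was at chr8:14072691-14072731, the second-highest REST peak (838.04), where RCOR1 had rank 4 (31.49) and RCOR2 rank 415 (8.54). SIN3A and SIN3B both ranked this site 3.

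That site was 1 of 5 shared sites whose RCOR2 peak stood beyond rank 400 of 437, and 3 of the 5 lay at REST peaks of rank 25 or better. The other two of these 3, named after their values were seen, were chr15:84657411-84657471 (RCOR1 rank 11, RCOR2 rank 407, REST rank 7) and chr18:25811251-25811291 (RCOR1 rank 18, RCOR2 rank 406, REST rank 21). Over the 30 shared sites the ranks in the RCOR1 and RCOR2 lists had a Spearman rho of 0.585. Over the 29 of them at REST, rho with the REST rank was 0.828 for RCOR1 and 0.420 for RCOR2. The contrast was smaller over all peaks of each list at REST, with 0.609 for RCOR1 (55 peaks) and 0.437 for RCOR2 (64 peaks). These correlations are descriptions across sites of single libraries. RCOR1 had the higher raw score at 13 of the 30 sites, although scores of different libraries need not be on the same scale.

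Shared peaks came with nearly the full set of REST cofactors. REST was present at 96.7% (29 of 30, 82.8 to 99.9%), RCOR3 at all 30 (88.4 to 100%), SIN3B at 29 and SIN3A at 86.7% (26 of 30, 69.3 to 96.2%). RCOR3 and SIN3B were nearly as constant at REST peaks of rank 1 to 308 with neither RCOR1 nor RCOR2. There RCOR3 was at 95.3% (225 of 236), SIN3B at 97.5% (230 of 236) and SIN3A at 34.7% (82 of 236). The REST ranks were unlike, however: 223 of these 236 ranked 51 to 308, whereas 23 shared peaks lay at REST rank 50 or better. Among the 13 with neither protein at rank 1 to 50, SIN3A was present at 11. All 4 other lists met at 26 of the 30 sites, and a further 3 had REST, RCOR3 and SIN3B without SIN3A. The exception was chr7:4105391-4105451, where RCOR1 (rank 24), RCOR2 (rank 126) and RCOR3 (rank 104 of 3729) met with no REST, SIN3A or SIN3B peak. The nearest REST midpoint there was 53670 bp away. It was the only site with all 3 CoREST proteins and no REST peak that near.

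RCOR1-only peaks were also REST sites. REST and RCOR3 were each present at 89.7% (26 of 29, 72.6 to 97.8%) and at the same 26 peaks, and SIN3B was at 82.8% (24 of 29, 64.2 to 94.2%). SIN3A was present at 41.4% (12 of 29, 23.5 to 61.1%), an interval that does not reach the lower bound of 69.3% for shared peaks. These intervals overlapped in a pair of alternatives: 47.1 to 86.8% for shared against 23.1 to 56.5% for RCOR1-only peaks when deposited intervals had to overlap, and 74.0 to 99.9% against 23.4 to 83.3% in the better-scoring 50% of each list. Every RCOR1-only peak at REST had RCOR3, and 12 of them had all 4 other lists. The remaining 3 RCOR1-only peaks met none of the 4. They were chr8:109339971-109340011 (rank 32) and, named after their values were seen, chr13:12651851-12651911 and chr5:143066611-143066651 (both rank 37), with a nearest REST midpoint at 112890, 9810 and 85440 bp.

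RCOR2-only peaks were of another make-up. REST was present at 8.60% of them (35 of 407, 6.06 to 11.8%), SIN3A at 5.90% (24, 3.81 to 8.65%) and SIN3B at 13.5% (55, 10.3 to 17.2%), but RCOR3 at 53.8% (219, 48.8 to 58.7%). The commonest combination was RCOR3 and none of REST, SIN3A or SIN3B, at 177 peaks (43.5%, 38.6 to 48.5%). A further 167 (41.0%, 36.2 to 46.0%) met none of the 4 lists. REST, RCOR3, SIN3A and SIN3B all met at 15 (3.69%, 2.08 to 6.01%). For RCOR1-only peaks, the corresponding shares were 0 of 29 with RCOR3 alone, which allows up to 11.9%, and 10.3% with none (2.19 to 27.4%).

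**Figure D2:**
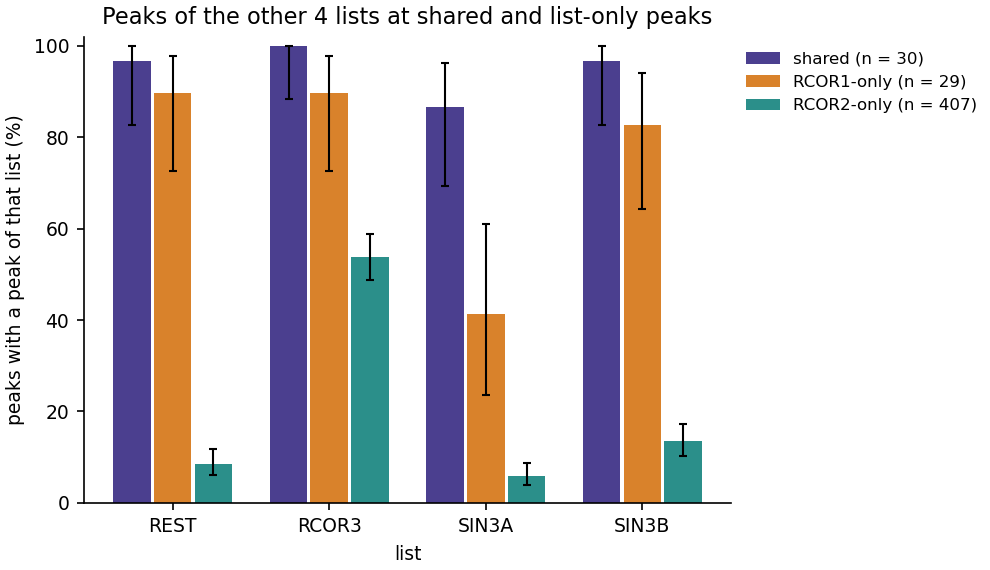
Bars give the share (percent) of shared, RCOR1-only and RCOR2-only peaks with a REST, RCOR3, SIN3A or SIN3B peak, and whiskers are exact 95% binomial intervals for counting error. Shared and RCOR1-only bars are alike for REST, RCOR3 and SIN3B and apart for SIN3A, while RCOR2-only bars are low except for RCOR3 at 53.8%.

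The 407 RCOR2-only peaks fell into a small part at REST and a large part away from it. The 35 at REST resembled RCOR1-only peaks at REST. SIN3B was present at 91.4% of them (32 of 35, 76.9 to 98.2%) against 92.3% (24 of 26, 74.9 to 99.1%), SIN3A at 48.6% (17 of 35, 31.4 to 66.0%) against 46.2% (12 of 26, 26.6 to 66.6%) and RCOR3 at 85.7% (30 of 35, 69.7 to 95.2%) against 26 of 26 (86.8 to 100%). These intervals are wide, and a share could differ widely within them. REST peaks of rank 1 to 308 with neither protein had SIN3B at 97.5%, RCOR3 at 95.3% and SIN3A at 34.7% (82 of 236, 28.7 to 41.2%). Within ranks 1 to 308 the likeness in RCOR3 and SIN3B was therefore not particular to these classes. SIN3A there was at 12 of 23 REST peaks with RCOR1 alone and 13 of 23 with RCOR2 alone. Beyond rank 308, RCOR3 was at 6 of 6 with RCOR1 alone, 13 of 18 with RCOR2 alone and 24.8% with neither (680 of 2741). SIN3B was there at 4 of 6, 15 of 18 and 31.5% (864 of 2741). Among the 372 away from REST, RCOR3 was present at 50.8% (189, 45.6 to 56.0%), SIN3B at 6.18% (23, 3.96 to 9.13%) and SIN3A at 1.88% (7, 0.760 to 3.84%). For 358 of these 372 no REST midpoint lay within 10 kb.

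The highest RCOR2-only peaks away from REST lacked SIN3A and SIN3B as well. The best was chr2:152107771-152107811 at RCOR2 rank 5 (score 24.12), with an RCOR3 peak of rank 1165 of 3729. Next were chr14:44354011-44354051 at rank 7 (RCOR3 rank 69), chr10:8579891-8580091 at rank 9 (RCOR3 rank 157) and chr18:75725251-75725471 at rank 10 (RCOR3 rank 42). The fifth place was tied at rank 12 between chr12:4576011-4576051 (RCOR3 rank 157) and chr7:48996071-48996111 (RCOR3 rank 25). The nearest REST midpoint was between 81680 and 1909750 bp away at these 6 sites. All of them had RCOR3, at ranks from 25 to 1165.

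At REST, the best RCOR2-only peak had only RCOR2 rank 37 (chr7:128479031-128479071), and its REST peak was weak, at rank 2171 of 3080, with no RCOR3, SIN3A or SIN3B. Next came chr7:27362671-27362711 (REST rank 339) and chr7:122462091-122462131 (REST rank 22), tied at RCOR2 rank 56. Then followed chr5:136091391-136091431 (REST rank 120) and chr6:86720271-86720371 (REST rank 446), tied at RCOR2 rank 72. These 4 carried RCOR3 at ranks 24 to 117 and SIN3B, and SIN3A was present only at the one of REST rank 22.

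RCOR3, the CoREST paralog with the long list, also ranked the classes differently. Its median rank was 19 of 3729 at shared peaks (quartiles 8.25 and 51.75) and 114 at the 26 RCOR1-only peaks that had it. It was 96.5 at RCOR2-only peaks at REST and 736 (274 and 1684) at those away from REST. An RCOR3 peak of rank 50 or better was found at 22 of the 30 shared peaks, 5 of the 29 RCOR1-only peaks, 10 of the 35 RCOR2-only peaks at REST and 5 of the 372 away from it. SIN3B and SIN3A likewise ranked shared peaks best and those away from REST lowest. The median SIN3B rank of 5294 was 54 at shared, 416.5 at RCOR1-only and 528 at RCOR2-only peaks at REST, and 2886 at the 23 away from REST. The median SIN3A rank of 1292 was 23, 188.5, 85 and 442 at the same 4 kinds of peak.

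Shared peaks lay at higher-ranked REST peaks than list-only peaks of either kind. The median REST rank was 19 of 3080 at the 29 shared peaks with REST (quartiles 8 and 43, range 1 to 508), 127 at the 26 RCOR1-only peaks (92.5 and 216.5, range 11 to 2872) and 120 at the 35 RCOR2-only peaks (44 and 419.5, range 22 to 2317). The corresponding median REST scores were 267.29, 104.0 and 106.1. The ranges overlapped, but 23 of the shared peaks, 4 of the RCOR1-only peaks and 10 of the RCOR2-only peaks lay at a REST peak of rank 50 or better. Within REST ranks 1 to 308, the top 10% of that list, lay 26 shared, 23 RCOR1-only and 23 RCOR2-only peaks. The quartiles of the RCOR2-only peaks lay further apart than those of the RCOR1-only peaks, but the whole range was wider for RCOR1-only. The order of the list-only medians varied among the alternatives. The medians stood at 4.12% of the REST list for RCOR1-only (3.05 to 6.88%) and 3.90% for RCOR2-only peaks (1.95 to 10.4%). They were 3.41% (2.37 to 5.42%) and 2.01% (1.14 to 4.51%) when the deposited intervals had to overlap. With all deposited peaks kept they were 4.64 and 5.77%, and in the better-scoring 50% of each list 4.87 and 6.33%. The intervals of the 2 classes overlapped in each of these settings.

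**Figure D3:**
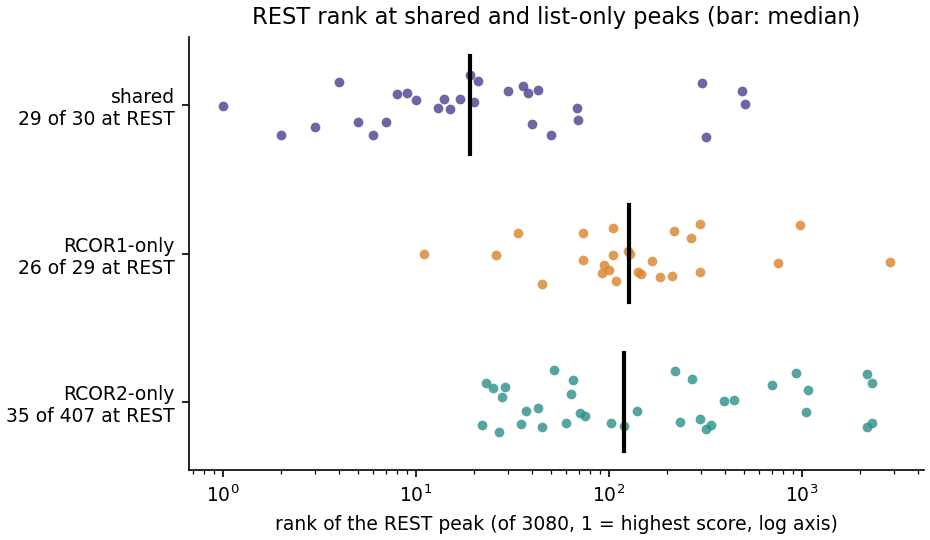
Each point is a peak with a REST peak less than 400 bp away, placed by REST rank (log axis, of 3080, 1 is the highest score), with vertical scatter added for legibility and a black bar at the median. The medians are 19 for shared, 127 for RCOR1-only and 120 for RCOR2-only peaks.

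From the side of REST, the strongest sites had both proteins. All 10 REST peaks of rank 1 to 10 had an RCOR1 and an RCOR2 peak. Of the 15 REST peaks of rank 11 to 25, 7 had both, 1 RCOR1 alone, 3 RCOR2 alone and 4 neither. Of the 25 of rank 26 to 50, 6 had both, 3 RCOR1 alone, 7 RCOR2 alone and 9 neither. Of the 52 of rank 51 to 100, 2 had both, 5 RCOR1 alone and 6 RCOR2 alone. Of the 101 of rank 101 to 200, none had both, 9 had RCOR1 alone and 3 RCOR2 alone, and of the 105 of rank 201 to 308 the numbers were 1, 5 and 4. Joint sites were thus fewer than single ones of either kind from rank 51 to 308. Among the 2772 REST peaks beyond that, 7 had both, 6 RCOR1 alone and 18 RCOR2 alone. Over all 3080 REST peaks, 33 had both, 29 RCOR1 alone, 41 RCOR2 alone and 2977 neither. The 33 exceed the 29 shared peaks at REST because 4 were weaker REST peaks beside a stronger one.

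**Figure D4:**
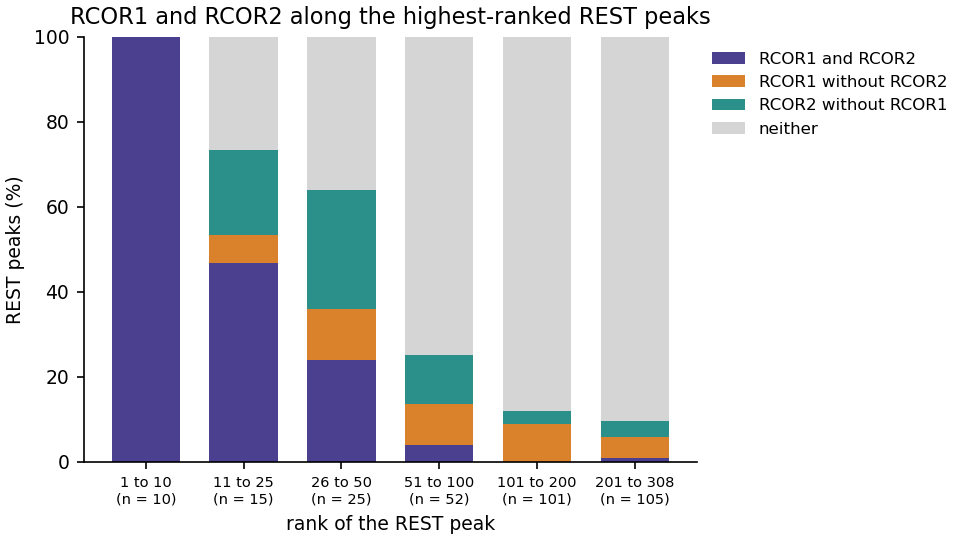
Stacked bars divide REST peaks in bands of REST rank (horizontal, number of REST peaks in brackets) into the percent with RCOR1 and RCOR2, 1 of them, or neither. All 10 peaks of the first band have both, and in the band of rank 101 to 200 no peak has both.

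The highest REST peak with RCOR1 but not RCOR2 was at rank 11, chr6:121438871-121438911 (REST score 333.08), where the RCOR1 peak itself was weak (score 10.5, rank 37). The next were chr2:33912751-33912811 (REST rank 26, RCOR1 rank 24), chr4:151643391-151643431 (REST rank 34, RCOR1 rank 59) and chr4:124802951-124803071 (REST rank 45, RCOR1 rank 15). The fifth place was tied at REST rank 73 between chr12:87872731-87872771 (RCOR1 rank 37) and chr4:139555691-139555731 (RCOR1 rank 52). The highest with RCOR2 but not RCOR1 were chr7:122462091-122462131 (REST rank 22, RCOR2 rank 56), chr9:99027811-99027951 (REST rank 23, RCOR2 rank 126), chr7:24068171-24068231 (REST rank 25, RCOR2 rank 126), chr4:150132931-150132971 (REST rank 27, RCOR2 rank 160) and chr7:39230171-39230231 (REST rank 28, RCOR2 rank 213). Among these sites the best own-list rank was 15 of 59 for RCOR1 and 56 of 437 for RCOR2.

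SIN3A presence also went with REST rank. Among REST peaks of rank 1 to 50, SIN3A was present at 23 of 23 with both CoREST proteins, 3 of 4 with RCOR1 alone, 9 of 10 with RCOR2 alone and 11 of 13 with neither. Among those of rank 51 to 308 it was present at 0 of 3, 9 of 19, 4 of 13 and 71 of 223. Beyond rank 308 it was present at 6 of 7, 1 of 6, 7 of 18 and 114 of 2741, but 4 of those 7 joint peaks lay beside a stronger REST peak. The counts with RCOR1 or RCOR2 were small. SIN3A was most frequent at joint sites in the first band and beyond rank 308, but not from rank 51 to 308. RCOR3 and SIN3B were present at every REST peak of rank 1 to 50, whatever the class.

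The RCOR2 list was then cut to its 59 highest-scoring peaks, the length of the RCOR1 list. The cut fell at a score of 15.08, which 16 peaks shared, and 4 of these were kept, in order of chromosome and start. Then 14 of 59 peaks were shared (23.7%, 13.6 to 36.6%), and each of the 14 had REST, RCOR3, SIN3A and SIN3B. The 16 other RCOR1 peaks that had been shared met only RCOR2 peaks below the cut. At equal length, REST was present at 93.2% of RCOR1 peaks (55 of 59, 83.5 to 98.1%) and at 25.4% of RCOR2 peaks (15 of 59, 15.0 to 38.4%). SIN3A was at 64.4% (50.9 to 76.4%) against 25.4% (15.0 to 38.4%) and SIN3B at 89.8% (79.2 to 96.2%) against 27.1% (16.4 to 40.3%). RCOR3 was at 94.9% (56 of 59, 85.9 to 98.9%) against 86.4% (51 of 59, 75.0 to 94.0%), with overlapping intervals. Only the RCOR3 share was thus similar in the lists of equal length.

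Of the 45 peaks of the cut RCOR2 list without RCOR1, 37 had RCOR3 (82.2%, 67.9 to 92.0%), 34 had RCOR3 and none of REST, SIN3A and SIN3B, and 1 had REST. The 7 that met no list made up 15.6% (6.49 to 29.5%), against the 41.0% among all RCOR2-only peaks. Cutting the list therefore removed peaks without a partner more than peaks with RCOR3. The 14 shared peaks of the cut list lay at a median REST rank of 9.5 (1 to 50). The 45 RCOR1 peaks without a partner in it still had REST at 91.1% (41 of 45, 78.8 to 97.5%), at a median rank of 105.

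Along the RCOR2 list, the shares with REST and RCOR1 both fell, and that with RCOR1 fell further. Of the 10 highest RCOR2 peaks, 7 had RCOR1 and the same number REST, and all 10 had RCOR3. Of the highest 20, 10 had RCOR1, 10 REST and 20 RCOR3, and of the highest 100, 16 had RCOR1, 21 REST and 80 RCOR3. Over the whole list the shares were 6.86% for RCOR1, 14.6% for REST and 57.0% for RCOR3. Along the RCOR1 list, REST stayed at or above 92% for the highest 10, 20, 30 and 50 peaks, while the share with RCOR2 went from 100% over 85 and 73.3% to 54%.

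**Figure D5:**
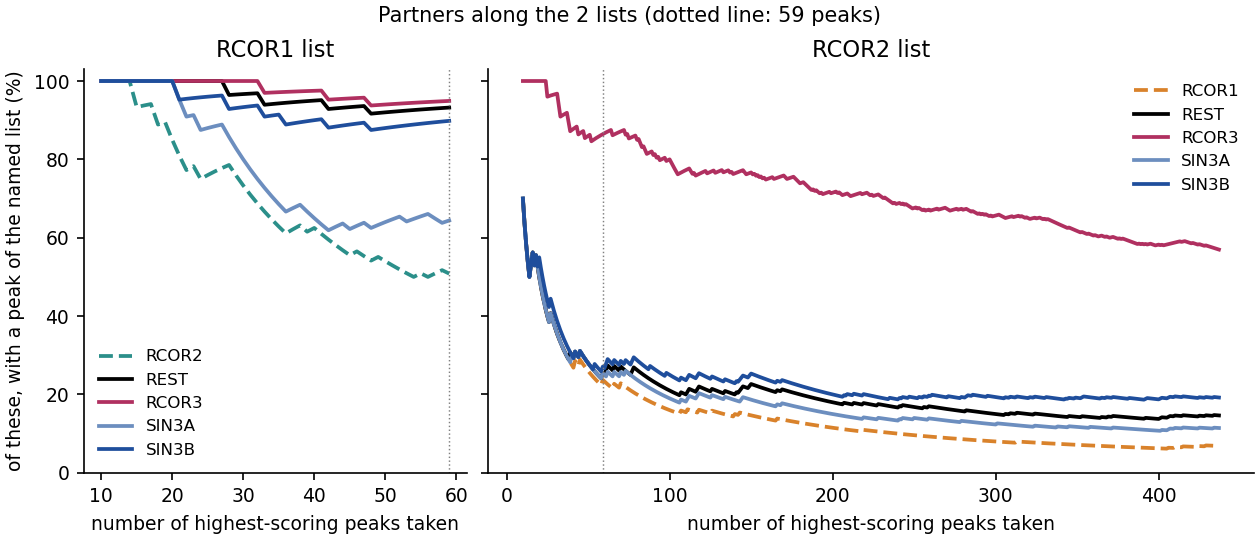
For the highest-scoring peaks of the RCOR1 list (left) and of the RCOR2 list (right), taken in growing number (horizontal, from 10), lines give the percent with a peak of each other list, and the dotted line marks 59 peaks. REST stays above 90% along RCOR1 but drops below 30% along RCOR2, where RCOR3 remains above 55%.

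The lowest scores differed too. A few peaks of each list scored below its commonest score, 10.5 for RCOR1 and 10.55 for RCOR2, a division chosen after the values were seen. All 10 such RCOR1 peaks had REST, RCOR3 and SIN3B (each 69.2 to 100%), and 3 were shared. Of the 32 such RCOR2 peaks, 7 had REST (21.9%, 9.28 to 40.0%) and 5 were shared (15.6%, 5.28 to 32.8%). Of the 405 RCOR2 peaks at or above that score, 57 had REST (14.1%, 10.8 to 17.8%) and 25 were shared (6.17%, 4.03 to 8.98%). Low-scoring RCOR1 peaks were thus still at REST sites, and low-scoring RCOR2 peaks had larger shares at REST and with RCOR1 than the others, with overlapping intervals. RCOR3 went the other way, at 40.6% of the low-scoring RCOR2 peaks (13 of 32, 23.7 to 59.4%) and 58.3% of the others (236 of 405, 53.3 to 63.1%). These intervals overlapped too.

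Chromosome 8 held 12.8% of RCOR2-only peaks (52 of 407, 9.69 to 16.4%) and 5.32% of the REST list. It held 2 of 30 shared (0.818 to 22.1%) and 1 of 29 RCOR1-only peaks (0.0873 to 17.8%), intervals that contain 12.8%. The share was 21.3% of the RCOR2-only peaks without RCOR3 (40 of 188, 15.7 to 27.8%) and 5.48% of those with it (12 of 219, 2.86 to 9.38%). The whole RCOR3 list had 2.47% of its peaks on that chromosome, the SIN3B list 8.80% and the SIN3A list 14.8%. The part of chromosome-wide differences between libraries in these shares was not tested. Without chromosome 8 no share of the 3 classes left the interval given above.

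On chromosome X, the excluded stretch held 24 RCOR1 and 22 RCOR2 peaks, of which 19 and 17 met the other list. The REST peaks there ranked no better than 1411 of 3104, whereas RCOR1 reached rank 6 of 84 and RCOR2 rank 2 of 459. The excluded single peak, at chrX:102389451-102389731, had the highest RCOR1 score of all, 168.7, but the other lists had no midpoint near it, the nearest being SIN3B at 1107220 bp. With all deposited peaks kept, 49 of 84 RCOR1 peaks (58.3%) and 47 of 459 RCOR2 peaks (10.2%) were shared.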

How the data were processed

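ChIP-seq was done on 6 libraries of E14 cells, 1 for each protein, grouped by their titles. Per the labels' protocols, library DNA of about 250 bp was cut from a gel after 15 PCR cycles and read on an Illumina Genome Analyzer. Each library has 1 peak list, deposited by the authors, with chromosome, start, end and a score per peak. Build mm8 comes from the names of the lists. The sources used here do not give the aligner, peak caller, control, threshold or depth, or whether starts count from 0 or 1. No replicate error can be given, and peaks are not replicates.

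Midpoints, ranks and shared peaks were computed with Python 3.11.15, pandas 2.3.3 and scipy 1.17.1. Where several peaks of another list met a peak, the highest-scoring one gave the rank. Peaks in the crowded stretch of chromosome X were removed from all 6 lists before ranking. Matching was tested on simulated data with planted pairs. The classes, and the rule for the regions named, were chosen with earlier results of these data known. That rule took the 10 best shared RCOR1 peaks, up to 15 RCOR1-only peaks, the 5 best RCOR2-only peaks at REST and 5 away from it, shared peaks without REST, the 5 highest REST peaks with 1 of the proteins, and 3 pairs on either side of the limit. Alternatives were midpoints within 200 or 1000 bp, overlap of the deposited intervals by at least 1 bp, all deposited peaks, the better-scoring 50% of each list, chromosome 8 left out, neighbouring peaks merged, and tied peaks kept in the cut list.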

Additional observations from a re-analysis of the deposited data

How the results depend on the processing

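Of 195 recomputed shares and median ranks (27 results under up to 8 alternatives), 182 stayed within the 95% interval of the reported value. For median ranks that interval was taken from the ordered ranks. All 27 did with midpoints within 200 or 1000 bp and with neighbouring peaks merged, and all 6 of the cut list did with tied peaks kept. The 200 and 1000 bp limits could not change which RCOR1 peaks were shared, as no nearest RCOR2 midpoint lay between 110 and 24460 bp away. Many intervals are wide, so a result could shift and stay within: RCOR1 peaks with RCOR2 went from 50.8 to 39.0% under interval overlap. Requiring the narrow deposited intervals to overlap moved the most, 7 of 27: the share with REST to 82.6% for shared and 72.2% for RCOR1-only peaks, that with RCOR3 to 87.0% for shared, 69.4% for RCOR1-only, 44.2% for RCOR2-only and 74.6% for cut RCOR2 peaks, and that with SIN3B to 73.9% for shared peaks. Under that alternative 23 RCOR1 peaks were shared; fewer peaks meet by construction. Keeping all deposited peaks moved the share of RCOR2 peaks with RCOR1 to 10.2%, that of shared peaks with RCOR3 to 81.6% and the median REST rank at shared peaks from 0.617 to 1.50% of the list. No paired analysis was possible because each protein has 1 library, and for the same reason no library could be left out. Sequencing depth is unknown, so a missing peak does not show that a protein was absent.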
